A study of Mus musculus with 4 samples.

Results

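The Serpina genes encode clade A serpins, plasma proteins made largely by hepatocytes, and 29 of the 55487 genes in the deposited count table carry a symbol that starts with Serpina. Of these, 24 are protein coding and 5 are pseudogenes in GENCODE M21. A total of 28 lie within 799544 bases of chromosome 12 (103614786 to 104414329, mm10), and Serpina7 lies alone on the X chromosome (139079257 to 139085236). Membership is set by name, with no threshold on values, and the family was picked with earlier results of these data known.

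A serpin inhibits a protease by offering an exposed stretch, the reactive centre loop, as bait. Cleavage of the loop traps the protease in a covalent complex, so the loop sequence largely sets which proteases are bound. Some family members have lost this role and carry hormones instead. In mouse the antitrypsin gene (Serpina1) and the antichymotrypsin gene (Serpina3) have each been duplicated into a set of paralogs, which sit next to each other in the chromosome 12 cluster.

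Messenger RNA was sequenced from bulk liver tumour tissue of 4 mice, and the series examined how the transferrin receptor gene Tfrc affects the tumour and its surroundings. The series title describes the animals as Alb-cre H11-myc mice, in which an albumin promoter drives Cre recombinase and a Myc transgene gives spontaneous hepatocellular carcinoma. In 2 mice Tfrc was conditionally deleted in the liver and 2 are labelled wild type. The labels do not give the strain, age or tumour stage, nor whether the wild type mice carry Cre, and the albumin-driven deletion leaves Tfrc intact in cells that do not express Cre.

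Tfrc as counted did not check the labels, with 460 and 234 CPM (counts scaled to TMM-adjusted library size) in wild type replicates 1 and 2 and 334 and 205 CPM in knockout replicates 1 and 2. Its log2 fold change was -0.37 (SE 0.45, edgeR quasi-likelihood adjusted p = 0.833), so directions are those of the libraries labelled knockout. Total counts ran from 15918349 to 17052943. The first principal component (48.2% of the variance) placed wild type replicate 2 at 86.6 and the other libraries between -38.5 and -11.2. Hepatocyte markers were present in every library, and their summed level was 15741 CPM in wild type replicate 1, 50343 CPM in wild type replicate 2, and 37852 and 36370 CPM in knockout replicates 1 and 2. Of these markers 13 of 15 tested were lowest in wild type replicate 1, and 8 were highest in wild type replicate 2. The summed level of 16 macrophage and monocyte markers was 1116 and 1406 CPM in wild type against 682 and 383 CPM in knockout, and 13 stellate cell and fibroblast markers had 2301 and 2021 against 1050.5 and 1590.5 CPM. In bulk tissue, fewer cells of a type and less RNA per cell cannot be told apart.

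The antitrypsin paralogs differ more in the reactive centre loop than in the rest of their coding sequence. The stretches below are the 75 coding bases that start at the conserved hinge of the loop (coding bases 1156 to 1230 of Serpina1a and 1087 to 1161 of the other 4, counted from the start codon). They come from GENCODE M21 transcripts (GRCm38) and are printed on the sense strand because they show which paralogs the counts below had to separate. Capitals mark bases that are not shared by all 5.
Serpina1a: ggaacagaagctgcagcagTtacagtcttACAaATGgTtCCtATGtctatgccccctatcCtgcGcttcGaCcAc
Serpina1b: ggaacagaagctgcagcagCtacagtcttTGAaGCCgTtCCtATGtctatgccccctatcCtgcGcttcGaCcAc
Serpina1c: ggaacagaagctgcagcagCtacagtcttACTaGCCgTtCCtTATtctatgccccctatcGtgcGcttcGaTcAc
Serpina1d: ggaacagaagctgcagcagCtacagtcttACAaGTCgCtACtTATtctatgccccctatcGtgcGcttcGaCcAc
Serpina1e: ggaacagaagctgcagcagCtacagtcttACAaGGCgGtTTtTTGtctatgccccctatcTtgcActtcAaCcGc
In the loop stretch 18 of 75 aligned bases (24%) differed between paralogs, against 137 of 1236 alignment columns (11.1%) in the rest. The 137 include columns where only Serpina1a has a base, since its coding sequence has 1311 bases and the others have 1242. The 11.1% therefore overstates the base differences outside the loop. Over the whole coding sequence any pair shared 96.3% to 98.5% of its bases, with Serpina1a and Serpina1c the closest pair.

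The 3 abundant antichymotrypsin paralogs are further apart. Their loops, cut at the same hinge (coding bases 1105 to 1179 of Serpina3k and 1099 to 1173 of Serpina3m and Serpina3n), are shown because these genes make up most of the Serpina3 counts. Capitals again mark bases not shared by all 3, here compared by position from the hinge without gaps. Each of the 3 coding sequences has 1257 bases, but the hinge starts later in Serpina3k. Some capitals towards the end may therefore mark a shift in register and not a base difference.
Serpina3k: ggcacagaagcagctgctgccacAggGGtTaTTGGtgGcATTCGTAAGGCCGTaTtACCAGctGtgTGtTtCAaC
Serpina3m: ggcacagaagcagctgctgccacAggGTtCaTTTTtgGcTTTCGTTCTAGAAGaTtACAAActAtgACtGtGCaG
Serpina3n: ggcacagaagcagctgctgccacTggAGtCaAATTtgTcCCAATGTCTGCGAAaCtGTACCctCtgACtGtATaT
Position by position, 36 of 75 bases differed, a count that allows no gaps and may overstate the base differences. In a gapped alignment, Serpina3k and Serpina3m shared 91.6% of 1251 aligned coding bases but 74.7% of the loop. Serpina3k and Serpina3n shared 82.7% and 61.3%. That alignment can place gaps in the loop, so the 36 and these percentages are not the same measure.

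How far reads can be assigned to 1 paralog was read from the transcripts themselves. For Serpina1c 30.7% of all 100-base stretches occurred in no other GENCODE M21 gene, on either strand, for Serpina1a 50.1%, for Serpina1d 70.7%, for Serpina1b 79.4% and for Serpina1e 85.2%. Serpina1a shared 47.4% of its 100-base stretches with Serpina1c. The Serpina3 paralogs were easier to tell apart, with 95.1% for Serpina3k, 93.9% for Serpina3m and 99.8% for Serpina3n. Serpina4-ps1, Serpina5, Serpina6, Serpina7, Serpina9, Serpina10 and Serpina12 were at 100% at this length. The sources used here state neither read length nor how reads with several matches were treated, so the split among Serpina1a to Serpina1e is uncertain while their sum is less so.

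**Figure D1:**
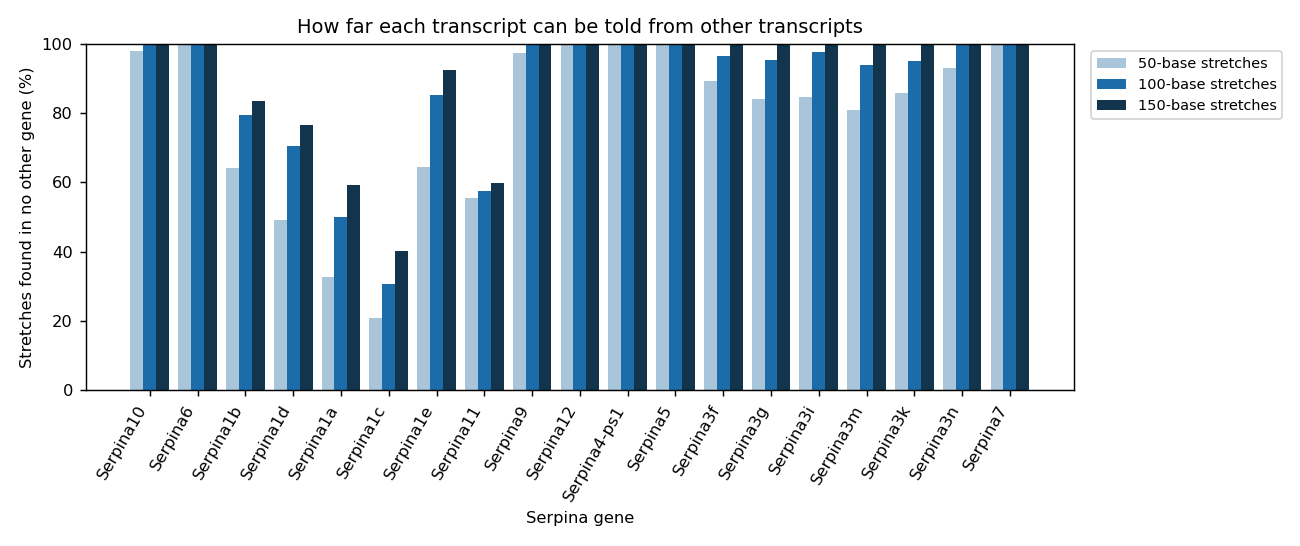
Share of 50-, 100- and 150-base stretches of each tested Serpina transcript that occur in no other gene's transcripts (percent, bars from 0). Serpina1c is lowest at 20.7%, 30.7% and 40.3% for the 3 lengths, and Serpina4-ps1 is at 100% for each.

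Antitrypsin transcripts dominated the family in every library. Levels between genes are compared as CPM per kilobase of exon, averaged over the 4 libraries. Serpina1a led with 922, followed by Serpina1b with 793 and Serpina1c with 663, and then Serpina1e with 265 and Serpina1d with 217. The order of the first 3 was not the same in each library. In wild type replicate 1 Serpina1b was above Serpina1a (602 against 566). In knockout replicate 2 Serpina1c was above Serpina1b (727 against 662). Serpina1a was above Serpina1c in all 4 libraries. The lead of Serpina1a also depends on the exon length used, since Serpina1b had more counts in every library but knockout replicate 2. The next genes were Serpina3k with 137, Serpina3n with 133, the cortisol and corticosterone carrier gene Serpina6 with 86.2, Serpina10 with 60 and the thyroxine carrier gene Serpina7 with 52.6. All Serpina genes together took between 0.500% (wild type replicate 1) and 0.825% (wild type replicate 2) of a library, with 0.600% and 0.625% in the libraries labelled knockout.

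**Figure D2:**
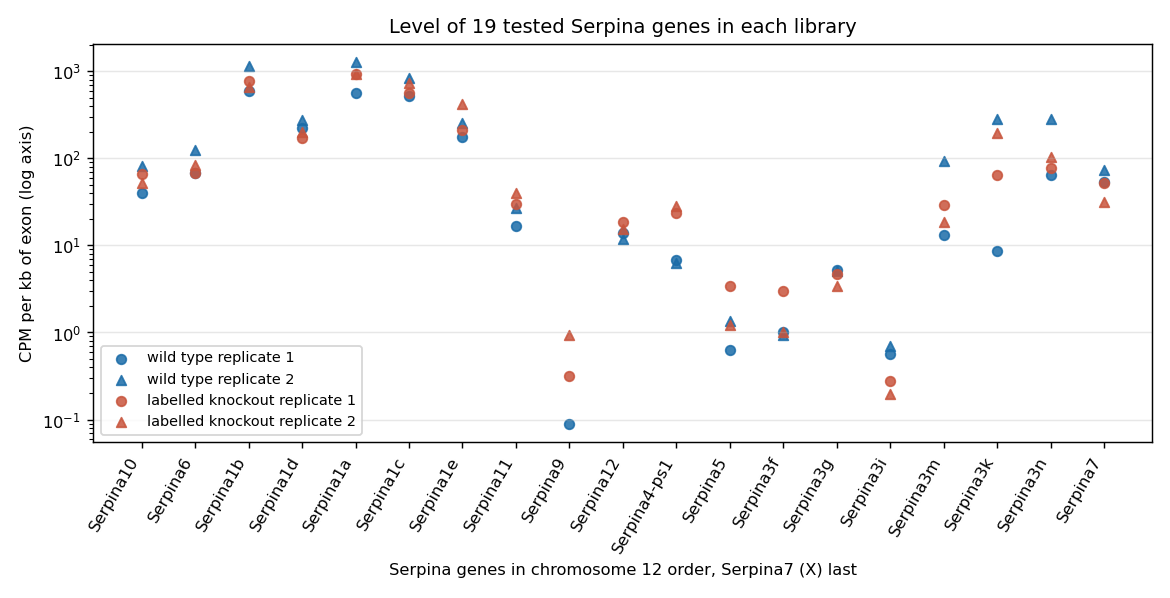
Level of the 19 tested Serpina genes in each library (CPM per kilobase of exon, log axis), blue for wild type, red for the libraries labelled knockout, circles for replicate 1 and triangles for replicate 2. Serpina1a to Serpina1c lie between 527 and 1277, Serpina3k spreads from 8.58 to 282 within the wild type, and Serpina9 has no point for wild type replicate 2, where it had 0 counts.

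No Serpina gene was called at an adjusted p of 0.05 when the groups were compared, and the pseudogene Serpina4-ps1 had the smallest p. Of the 29 members 19 passed the filter on low counts and were tested. By edgeR's quasi-likelihood test and Benjamini-Hochberg adjustment across the 16310 genes tested, 0 members were called, where 0% of all genes were called. DESeq2 called 1 member, Serpina4-ps1, against 0.386% of all genes called higher. At an unadjusted p under 0.05 there were 2 members, Serpina4-ps1 and Serpina9, both higher, where 3.95% of all tested genes were and 8.3% passed in either direction. The groups did not overlap upward for 4 members (Serpina4-ps1, Serpina9, Serpina11 and Serpina12), against 21.9% of all tested genes, and downward for 4 (Serpina1d, Serpina7, Serpina3g and Serpina3i), against 20.1%. These counts, 4 of 19 each way, are near the background. The median log2 fold change of the 19 was -0.07, against 0.01 for all tested genes, with 8 positive and 11 negative.

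**Figure D3:**
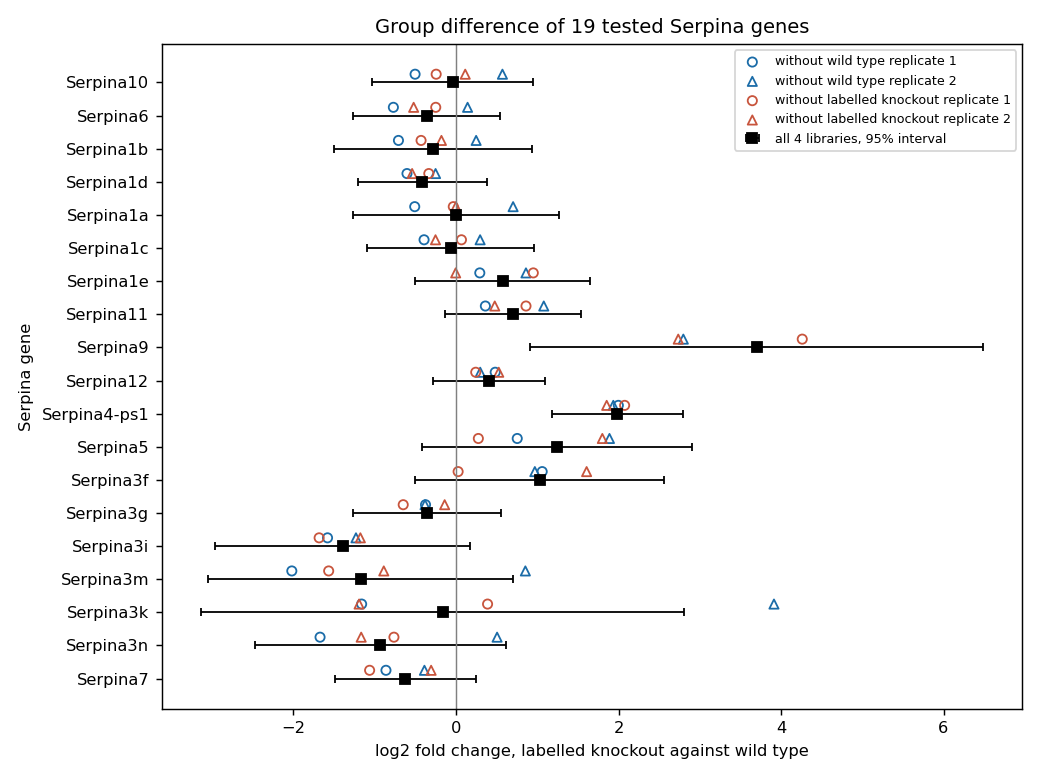
Log2 fold change of labelled knockout against wild type for the 19 tested Serpina genes, black squares with 95% intervals from edgeR, and open symbols for the value without each library in turn. Serpina4-ps1 stays between 1.85 and 2.08, Serpina3k runs from -1.19 to 3.91, and the value of Serpina9 without wild type replicate 1 is not drawn, since the remaining wild type library had 0 counts.

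Serpina4-ps1 was higher in both libraries labelled knockout. It is the mouse pseudogene that corresponds to kallistatin, a tissue kallikrein inhibitor encoded by SERPINA4 in humans (ENSMUSG00000092075, chromosome 12, 104080649 to 104086724, plus strand, unprocessed pseudogene with 4 exons). Replicates 1 and 2 of the wild type had 161 and 126 counts and those of the knockout 497 and 579, or 8.77 and 8.19 CPM against 30.7 and 36.5 CPM. The groups were far apart and the libraries within each group close together. This 3.96-fold difference was 1.98 on the log2 scale (SE 0.34, 95% interval 1.18 to 2.79), with an edgeR adjusted p of 0.386, and DESeq2 gave an adjusted p of 4.28e-04. Leaving out 1 library kept it between 1.85 and 2.08, with edgeR adjusted p of 0.0354 and 0.0821 when wild type replicate 1 or 2 was left out, and of 0.854 and 1.00 when knockout replicate 1 or 2 was. In each of these fits 1 group is a single library that is assumed to vary like the other group, and the first called 1.22% of all genes higher and 1.17% lower. No annotated gene overlaps it on either strand, and all of its 50-base stretches are absent from other transcripts. Its longest reading frame from a start codon has 387 of 1287 bases, against 747 to 1347 for the coding sequences of the coding members. Its closest member by sequence, Serpina11, matched over only 116 bases, with 75.9% identity.

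The nearest members on either side of Serpina4-ps1, Serpina12 and Serpina5, had smaller fitted differences, and Serpina9, at few counts, a larger one. Serpina12, which encodes the adipokine vaspin and is the nearest member on one side, had 51.4 and 44.1 CPM in wild type against 68.7 and 57.6 CPM in knockout (0.40 on the log2 scale, SE 0.29, edgeR adjusted p = 0.711). Serpina5, the protein C inhibitor, is the nearest member on the other side and had 1.36 and 2.92 against 7.46 and 2.65 CPM, so its groups overlapped. Its log2 fold change of 1.24 (SE 0.70) was 0.28 without knockout replicate 1. Serpina9, known from germinal centre B cells, had only 6 and 0 counts in wild type against 19 and 55 in knockout, or 3.70 on the log2 scale (SE 1.18, edgeR unadjusted p = 0.0165, adjusted p = 0.547). This fitted value depends on the prior count, since 1 wild type library was at 0, and it ran from 2.74 to 4.26 when another single library was left out. The summed level of 17 lymphocyte markers was 40.5 and 24.4 CPM in wild type against 33.2 and 31.2 CPM in knockout, and its part in the Serpina9 counts was not tested. Serpina11, a clade A serpin of liver, had 27.3 and 43.9 against 49.5 and 66.2 CPM (0.70 on the log2 scale, SE 0.35, adjusted p = 0.634; 0.36 without wild type replicate 1). Gm28577 shares 669 exon bases, 40.8% of the exons of Serpina11, on the same strand and had 1 count in all.

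The antitrypsin genes, whose products inhibit neutrophil elastase and other serine proteases, did not differ detectably between the groups. Summed over Serpina1a to Serpina1e, the level was 3799.7 and 7009.7 CPM in wild type replicates 1 and 2 and 4901 and 5239 CPM in knockout replicates 1 and 2. Both knockout libraries lay between the wild type ones. The sum differed by -0.09 on the log2 scale (SE 0.60, 95% interval -1.50 to 1.32), with an edgeR adjusted p of 0.973. It was 0.42 with wild type replicate 2 left out and -0.50 with wild type replicate 1 left out.

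Serpina1a, Serpina1b and Serpina1c ordered the libraries by wild type mouse, and Serpina1d and Serpina1e did not. Serpina1a had 1037 and 2340.0 CPM in wild type against 1688 and 1689.9 CPM in knockout. Serpina1b had 1454 and 2750.0 against 1857 and 1598 CPM, and Serpina1c 718 and 1128 against 775 and 989 CPM. In these 3 the wild type replicates were the lowest and the highest library. Serpina1d had 309 and 384 CPM in wild type against 238 and 281 CPM in knockout, so the groups did not overlap, at -0.42 on the log2 scale (SE 0.34, adjusted p = 0.738). Serpina1e had 282 and 407 against 344 and 681 CPM, and its log2 fold change of 0.57 (SE 0.45) was -0.0038 without knockout replicate 2.

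The mix of paralogs differed between libraries, within groups as well as between them. In knockout replicate 2 Serpina1e took 13.01% of the Serpina1a to Serpina1e counts (95% Wilson interval 12.78% to 13.24%), against 7.42% (7.23% to 7.62%) and 5.81% (5.67% to 5.95%) in wild type replicates 1 and 2 and 7.01% (6.83% to 7.19%) in knockout replicate 1. Serpina1b took 30.5% in knockout replicate 2 and 37.9% to 39.2% in the other 3. Serpina1a had its lowest share, 27.30%, in wild type replicate 1, against 32.26% to 34.43% elsewhere. Serpina1d took 8.12% and 5.48% in wild type and 4.86% and 5.36% in knockout. Wild type replicate 1 thus had the lowest Serpina1a and the highest Serpina1d share. The intervals cover counting error only, and with 2 libraries a group no test of the shares was made.

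**Figure D4:**
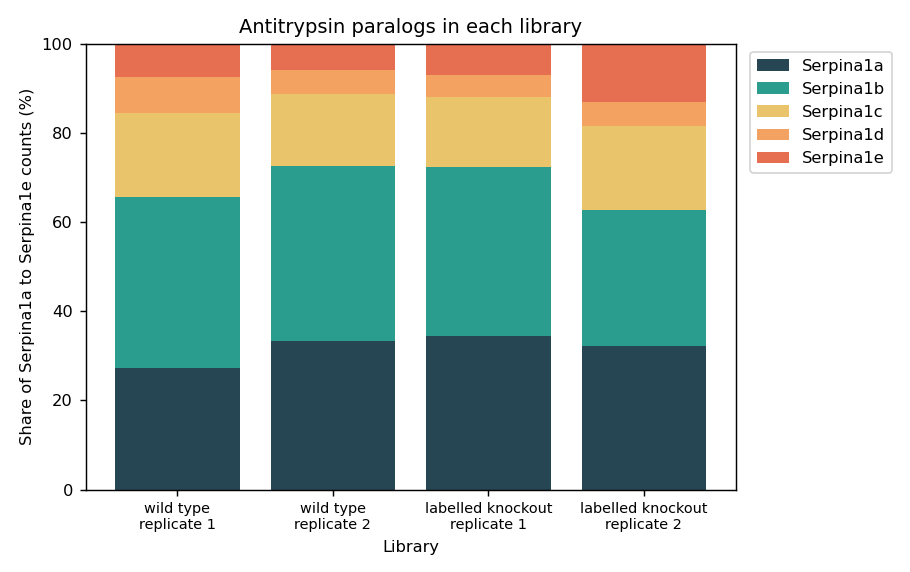
Share of each antitrypsin paralog in the summed counts of Serpina1a to Serpina1e (percent, stacked bars from 0 to 100), 1 bar for each library. The Serpina1e segment is 13.01% in labelled knockout replicate 2 and 5.81% to 7.42% in the other 3 libraries.

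A pseudogene inside the antitrypsin cluster, which carries no Serpina symbol, was also higher in the libraries labelled knockout. Gm8893 (chromosome 12, 103817856 to 103822243, minus strand) lies inside the long annotated span of Serpina1b, with no shared exon base, and its transcript of 1242 bases is 98.8% identical to that of Serpina1a. It was examined with the other 14 non-Serpina genes inside the chromosome 12 span, and its values were singled out after they were seen. The loop stretch of Gm8893 (bases 1087 to 1161 of its transcript), with the same columns in capitals as above, is shown for comparison with Serpina1a, from which it differs at 1 of 75 bases.
Gm8893: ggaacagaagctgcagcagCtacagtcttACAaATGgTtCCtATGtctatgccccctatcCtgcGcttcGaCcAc
Gm8893 had 577 and 759 counts in wild type against 1643 and 1675 in knockout, or 31.4 and 49.3 against 101 and 106 CPM. The groups did not overlap (1.36 on the log2 scale, SE 0.33, edgeR unadjusted p = 4.77e-03, adjusted p = 0.545). It equalled 2.94% and 2.06% of the counts assigned to it and Serpina1a together in wild type, and 5.67% and 5.88% in knockout. Of its 100-base stretches 76% occurred in no other gene. With Gm8893 added to the antitrypsin sum the log2 fold change was -0.07. B430119L08Rik, an antisense transcript that shares 429 exon bases with Serpina1c, had 10.9 and 11.2 against 19.9 and 25.6 CPM (1.04 on the log2 scale, SE 0.35, adjusted p = 0.548). The sources used here do not state whether the counting used strand, so its reads cannot be told apart from those of Serpina1c in the shared exons. Of the other 13 genes in the span none had more than 37 counts in any library.

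For the 3 abundant antichymotrypsin paralogs the gap between the wild type mice was larger than the difference between the groups. Serpina3n, an acute phase serpin that inhibits granzyme B, had 133 and 585 CPM in wild type replicates 1 and 2 and 160 and 217 CPM in knockout replicates 1 and 2. Serpina3k had 17.6 and 579 CPM in wild type against 131 and 402 CPM in knockout. Its gap was 32.8-fold between the wild type mice and 3.07-fold between the knockout mice. Serpina3m, the neighbour of Serpina3k, had 22.7 and 162 CPM against 49.9 and 32.0 CPM. In all 3 genes wild type replicate 1 was the lowest library and wild type replicate 2 the highest.

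The log2 fold changes of Serpina3n, Serpina3k and Serpina3m were -0.93 (SE 0.65), -0.16 (SE 1.25) and -1.17 (SE 0.79), with edgeR adjusted p values of 0.702, 0.977 and 0.692. Without wild type replicate 1 they were -1.67, -1.16 and -2.02, with edgeR adjusted p of 0.0443, 0.239 and 0.0246 in a fit where the knockout pair alone gives the spread and 1.17% of all genes were called lower. Without wild type replicate 2 the signs turned, to 0.51, 3.91 and 0.85, and Serpina3k was also positive, at 0.39, without knockout replicate 1. The sum of all 14 Serpina3 rows had 188 and 1342 CPM in wild type against 359 and 662 CPM in knockout, or -0.58 on the log2 scale (SE 0.83, 95% interval -2.56 to 1.39, edgeR adjusted p = 0.857). That sum was at -1.43 without wild type replicate 1, -0.25 without knockout replicate 1, -1.09 without knockout replicate 2 and 1.44 without wild type replicate 2. Albumin transcripts ranked wild type replicate 1 lowest and wild type replicate 2 highest as well. They had 5376 and 29461 CPM in wild type against 21874 and 16813 CPM in knockout. Not all hepatocyte markers had this order: of 15 tested, 13 were lowest in wild type replicate 1 and 8 highest in wild type replicate 2. Whether the hepatocyte content of the samples plays a part in the Serpina3 levels was not tested.

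**Figure D5:**
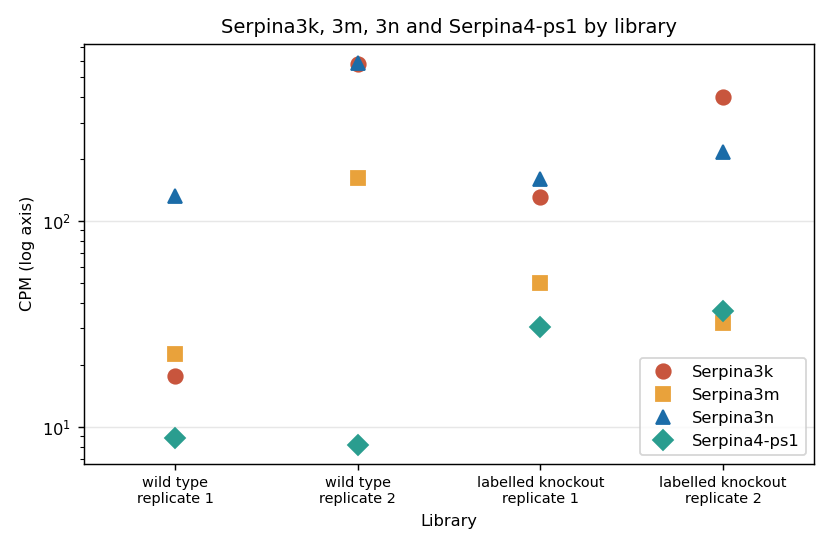
Level of Serpina3k, Serpina3m, Serpina3n and Serpina4-ps1 in each of the 4 libraries (CPM, log axis), 1 symbol for each gene. Serpina3k runs from 17.6 to 579 between the wild type replicates, whereas Serpina4-ps1 is at 8.77 and 8.19 in wild type and at 30.7 and 36.5 in the libraries labelled knockout.

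The make-up of the Serpina3 counts also differed between libraries, in another order than their level. Serpina3k took 9.38% of the counts of the 14 rows in wild type replicate 1 (95% Wilson interval 8.45% to 10.40%) and 43.16% in wild type replicate 2 (42.49% to 43.84%), and 36.45% and 60.68% in knockout replicates 1 and 2. Serpina3n took 70.48% and 43.59% in wild type and 44.58% and 32.76% in knockout. Serpina3m took 12.04%, 12.07% and 13.90% in wild type replicates 1 and 2 and knockout replicate 1, and 4.83% in knockout replicate 2. Serpina3m and Serpina3k are annotated from the same first base and share 60 exon bases.

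The low-level Serpina3 paralogs showed no shared direction. Serpina3g, an inhibitor of cysteine cathepsins in lymphoid and myeloid cells, had 11.1 and 10.8 CPM in wild type against 9.93 and 7.13 CPM in knockout (-0.36 on the log2 scale, SE 0.38). Serpina3i had 23 and 24 counts in wild type against 10 and 7 in knockout, or -1.39 on the log2 scale (SE 0.66, edgeR unadjusted p = 0.0741). Serpina3f had 2.34 and 2.14 CPM in wild type against 6.85 and 2.33 CPM in knockout, so its log2 fold change of 1.03 was 0.03 without knockout replicate 1. These genes share sequence with each other, and 83.98% of the 50-base stretches of Serpina3g, 84.57% of those of Serpina3i and 89.27% of those of Serpina3f occurred in no other gene.

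Hormone carriers and the coagulation serpin did not differ detectably. Serpina6 encodes corticosteroid-binding globulin and had 120 and 221 CPM in wild type against 119 and 147 CPM in knockout (-0.36 on the log2 scale, SE 0.38, edgeR adjusted p = 0.804; 0.14 without wild type replicate 2). Serpina7, which encodes thyroxine-binding globulin, had 133 and 180 against 126 and 76.5 CPM, with groups that did not overlap (-0.62 on the log2 scale, SE 0.36, adjusted p = 0.663). The gap in Serpina7 between knockout replicate 1 and wild type replicate 1 was small, and the log2 fold change was -0.31 without knockout replicate 2 and -1.06 without knockout replicate 1. Serpina10, the protein Z-dependent inhibitor of coagulation factor X in its active form, had 139 and 286 against 230 and 184 CPM (-0.04 on the log2 scale, SE 0.42). Both knockout libraries lay between the wild type ones.

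Across the tested members, 11 of 19 (57.9%) were highest in wild type replicate 2, against 31.4% of all tested genes. In 10 of 19 (52.6%) wild type replicate 1 was lowest, against 22.4% of all tested genes. Compared with wild type replicate 1 alone, 13 members were higher in both knockout libraries and 4 lower, where 37.2% and 35.7% of all tested genes were. Compared with wild type replicate 2 alone, 5 were higher and 12 lower, where 41.7% and 39.0% of all tested genes were. Leaving out wild type replicate 2 turned the sign of 7 of the 19 log2 fold changes.

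The remaining 10 members were too low to test, with at most 12 counts in any library. Serpina1f, Serpina3e-ps and Serpina3j had 0 counts in all 4 libraries, which allows up to 0.176 to 0.188 CPM in a library (3 counts over the unscaled library total, counting error only). Serpina3c had 4 and 12 counts in wild type against 0 and 5 in knockout. Serpina3h, a transcribed pseudogene, had 3 and 7 against 3 and 10 counts, and Serpina3a 3 and 0 against 8 and 6. Serpina16 was at 0 in both wild type mice and at 2 and 3 counts in the knockout mice, and Serpina3b had 3 counts in knockout replicate 2 only. Serpina3d-ps and Serpina3l-ps had at most 2 counts.

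Among serpins of other clades 0 were called by edgeR, and at an unadjusted p under 0.05 there were 4, all lower in the libraries labelled knockout, where 4.35% of all tested genes were. Of 16 tested, 11 had a negative log2 fold change (median -0.26, against 0.01 for all tested genes), and 4 did not overlap downward, where 20.1% of all tested genes did not. Serpinb1a, an intracellular inhibitor of neutrophil proteases, had 60.4 and 23.2 CPM in wild type against 6.23 and 12 CPM in knockout (-2.19 on the log2 scale, SE 0.56, edgeR adjusted p = 0.545; DESeq2 adjusted p = 0.0192). Serpinb6a and Serpinb8 had log2 fold changes of -1.43 and -1.53. DESeq2 called 1 of the 16, Serpinb1a, where it called 0.521% of all genes lower. The summed level of 11 neutrophil markers was 28.3 and 77.3 CPM in wild type against 16.1 and 16 CPM in knockout, and the part of these cells and of the macrophages in the serpin levels was not tested.

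Proteases that Serpina proteins bind showed no shared direction. Of 22 listed, 15 were tested, with 6 positive and 9 negative log2 fold changes (median -0.20) and 0 called by edgeR. Klkb1, plasma prekallikrein, had 59.7 and 69.3 CPM in wild type against 97.3 and 126 CPM in knockout (0.80 on the log2 scale, SE 0.30, adjusted p = 0.591). Cela1, an elastase of the chymotrypsin family, had 18.1 and 46 against 6.35 and 13.3 CPM, and Prtn3, the neutrophil protease proteinase 3, had 2.67 and 17.3 against 5.06 and 3.66 CPM.

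Most acute phase genes showed the same order of wild type libraries as Serpina3n. Of 32, 28 were higher in wild type replicate 2 than in replicate 1, against 48.1% of all tested genes. This order was not particular to them, since 14 of 15 tested hepatocyte markers had it too. Of the 32, 23 (71.9%) were highest in wild type replicate 2 and 21 (65.6%) lowest in wild type replicate 1, against 31.4% and 22.4% of all tested genes. Their summed level was 23533 and 51034 CPM in wild type against 32648 and 28429 CPM in knockout, the median log2 fold change was -0.15, and 0 were called by edgeR. A2m, a broad protease trap and 1 of the 4 exceptions to that order, had 101 and 92.3 CPM in wild type against 36.0 and 14.0 CPM in knockout (-1.95 on the log2 scale, SE 0.47, edgeR adjusted p = 0.545, DESeq2 adjusted p = 0.0162). DESeq2 called 1 of the 32, A2m, where it called 0.521% of all genes lower. Lrg1 had 446 and 1913 against 525 and 507 CPM. Of 10 carriers of hormones and vitamins, 3 were above 0 on the log2 scale and 7 below (median -0.60), 9 were higher in wild type replicate 2 than in replicate 1, and Igfals, which stabilises circulating IGF1, had 24.6 and 80.8 against 19.5 and 18.7 CPM.

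Of 17 tested transcription factors that act on liver serpin genes, 10 were above 0 on the log2 scale and 7 below (median 0.17). Xist had 2 or 3 counts in each library and Ddx3y 271 to 942, so all 4 libraries had a male pattern. In the list of 18 genes that fold, export or degrade antitrypsin in the endoplasmic reticulum, 11 were positive and 7 negative (median 0.06). Syvn1, a ubiquitin ligase of that degradation pathway, had 40.7 and 30.5 CPM in wild type against 93.9 and 116 CPM in knockout (1.56 on the log2 scale, SE 0.32, edgeR adjusted p = 0.497; DESeq2 adjusted p = 8.79e-03). Sec24a, a coat protein of transport vesicles, had 76.1 and 57.8 against 131 and 137 CPM, and the chaperone gene Hspa5 1042 and 819.8 against 376 and 612 CPM.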

How the data were processed

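Gene counts and FPKM for 4 liver tumour libraries (2 wild type, 2 knockout) were deposited by the authors in 1 table of 55487 genes. The counts were used as deposited. The length implied by the deposited FPKM equalled the sum of all distinct exons for 25 of 26 members with a value. It equalled the exon union for only 11 of these, in which both lengths are the same, so levels between genes were compared as CPM per kilobase of exon union in place of FPKM. This replacement was chosen after seeing the data. The submitters' processing notes name HISAT2, SAMtools 1.3.1, StringTie, edgeR and the mm10 build, without their roles. The strand setting of the counting and the treatment of reads with several matches are not given in the sources used here.

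Symbols came from GENCODE M21, and 55141 identifiers had one. Libraries were grouped by title. Genes passing filterByExpr (16310) were tested with edgeR 4.0.16 in R 4.3.3 (TMM scaling, also used for CPM, quasi-likelihood F test, Benjamini-Hochberg adjustment, threshold 0.05). The alternatives were DESeq2 1.42.0, limma-voom (limma 3.58.1), other scalings and filters, a replicate block and leaving out each library. Paralog counts were also summed and fitted as 1 gene. On simulated data for knockout against wild type with 16310 genes, 1, 21, 34 and 46 of 50 genes changed 2-, 4-, 8- and 16-fold were recovered, with 16 false calls. Genes were drawn independently there, without a shift shared across a library, so these rates need not hold for the real libraries. Intervals of shares are Wilson intervals at 95%, and they and the floor of 3 counts cover counting error only. With 2 libraries against 2 an exact permutation test cannot go below p = 0.333.

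Transcripts were compared with BLAST 2.17.0 and MAFFT 7.526. All 29 Serpina genes are accounted for by name. Other genes named are those of the context lists with the smallest unadjusted p, and others were chosen after their values were seen. The members and lists were chosen with earlier results of these data known. Values of some listed genes are not reported here.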

Additional observations from a re-analysis of the deposited data

How the results depend on the processing

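With edgeR 0 of all tested genes were called. DESeq2 called 148, scaling by library totals 1, limma-voom 1 and the fit with a replicate block 4, and leaving out 1 library gave 0 to 409 (409 when wild type replicate 1 and 68 when wild type replicate 2 was left out). Of the Serpina genes DESeq2 called 1, and leaving out 1 library gave 0 to 3, the 3 being called in the absence of wild type replicate 1 (Serpina4-ps1, Serpina3m and Serpina3n). The summed antitrypsin log2 fold change ran from -0.50 to 0.42 and the summed Serpina3 value from -1.43 to 1.44 when 1 library was left out. Leaving out 1 library turned the sign of 9 single values, which ran from -0.50 to 0.57 for Serpina10, -0.51 to 0.70 for Serpina1a, -0.71 to 0.25 for Serpina1b, -0.39 to 0.30 for Serpina1c, -1.19 to 3.91 for Serpina3k, -2.02 to 0.85 for Serpina3m, -1.67 to 0.51 for Serpina3n, -0.0038 to 0.95 for Serpina1e and -0.77 to 0.14 for Serpina6. With limma-voom Serpina10 was 0.035 and Serpina3k 1.17. Serpina1a, at 0.00, was -0.024 with DESeq2 and with its size factors and -0.046 with no filter on low counts. The cause of these turns was not tested. The replicate numbers were not taken as pairing, since only 2 pairs exist (correlation of deviations 0.12). With the replicate block Serpina10 was 0.043, Serpina3k 1.17, the antitrypsin sum -0.03 and the Serpina3 sum -0.04. A mean of at least 5 CPM left 15 of the 19 tested Serpina genes and called 0. The 10 untested genes had too few counts at this depth for a comparison.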
